A study of Mus musculus with 27 samples.

Results

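The genes described are 10 neuropeptide genes of the mouse retina, namely Cck, Adcyap1, Vip, Crh, Npy, Tac1, Penk, Sst, Gal and Nts, out of 40129 genes in the deposited table. They were taken by symbol, and the set was selected on the normalized reads of Cck, which were lower in OIR retinas at both ages, so the values of Cck are given as a description without a test. The rule names no value of the other 9, although the set was chosen with earlier results of these data known. All 10 members passed the filter on low values (1 normalized read or more on average over the 26 mice), as did 27137 genes in all.

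Retinas came from wild-type (WT) pups of either sex, of the strain labelled C57BL/6 (C57BL/6J in the study's methods), and each library is 1 mouse, from 1 retina or from both retinas pooled. In the oxygen-induced retinopathy (OIR) model, pups breathe 75% oxygen from postnatal day 7 to day 12, which closes part of the retinal vessels, and then return to room air. Retinas were taken at p14, in the hypoxic phase, and at p17, when vessels grow out of the retina. Age-matched pups kept in room air (nOIR) were the controls, with 6 control and 6 OIR mice compared at p14, and 6 control and 8 OIR mice at p17. A 7th nOIR p14 mouse, S4, was left out, as the study did for its lens transcripts. Pups came from several litters, and OIR pups outside a weight range were excluded by the study. Since the litter of each library is not given, the part of litter in the differences was not tested.

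Neuropeptides are cut from larger precursor proteins, stored in dense-core granules and released to act on G protein-coupled receptors at a distance from the synapse. In the retina most of them are made by subtypes of amacrine cells, the inhibitory interneurons of the inner retina, where they are co-released with GABA or glycine. PACAP, the product of Adcyap1, is also made by the melanopsin ganglion cells that send light signals to the circadian clock.

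Where several members move in the same tissue, their promoters are of interest. The sequence before the start site is shown for Cck, Adcyap1, Vip, Tac1 and Npy, which differed between OIR and control at one or both ages. Nts also differed at p17 but had few reads, and its sequence is not shown. A RefSeq window (GRCm38.p6) was found for 8 of the 10 members, without Penk and Crh. The letters TGACG, TGACGTCA and ACGTG were searched on both strands. TGACG is the core of the cAMP response element, through which activity and cAMP drive many peptide genes. TGACGTCA is the full element, which contains that core on both strands. ACGTG is a form of the core bound by hypoxia-inducible factors, and other forms of that core were not searched. Each sequence below is the 250 bases before the start site, 5′ to 3′ on the strand of the gene, with matches in capitals.
Cck, chr9:121495695-121495944, minus strand: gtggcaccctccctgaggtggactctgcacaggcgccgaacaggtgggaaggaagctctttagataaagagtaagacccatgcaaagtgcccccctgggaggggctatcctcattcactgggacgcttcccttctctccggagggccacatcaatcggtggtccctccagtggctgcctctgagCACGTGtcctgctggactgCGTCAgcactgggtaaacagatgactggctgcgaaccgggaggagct
Adcyap1, chr17:93198767-93199016, plus strand: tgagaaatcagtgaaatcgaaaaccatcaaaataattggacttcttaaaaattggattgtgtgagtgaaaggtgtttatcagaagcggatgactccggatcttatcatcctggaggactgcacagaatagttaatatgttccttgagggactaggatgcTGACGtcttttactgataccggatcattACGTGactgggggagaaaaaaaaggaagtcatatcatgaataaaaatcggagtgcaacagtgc
Vip, chr10:5638968-5639217, plus strand: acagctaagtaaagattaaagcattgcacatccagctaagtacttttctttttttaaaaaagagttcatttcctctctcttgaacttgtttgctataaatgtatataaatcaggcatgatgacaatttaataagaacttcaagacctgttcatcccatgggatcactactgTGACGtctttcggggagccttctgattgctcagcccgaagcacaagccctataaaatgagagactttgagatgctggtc
Tac1, chr6:7554811-7555060, plus strand: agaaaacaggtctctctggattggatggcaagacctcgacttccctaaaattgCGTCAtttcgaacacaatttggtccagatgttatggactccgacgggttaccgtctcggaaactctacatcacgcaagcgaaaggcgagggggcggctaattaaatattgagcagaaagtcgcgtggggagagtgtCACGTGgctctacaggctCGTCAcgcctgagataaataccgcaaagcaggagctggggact
Npy, chr6:49822460-49822709, plus strand: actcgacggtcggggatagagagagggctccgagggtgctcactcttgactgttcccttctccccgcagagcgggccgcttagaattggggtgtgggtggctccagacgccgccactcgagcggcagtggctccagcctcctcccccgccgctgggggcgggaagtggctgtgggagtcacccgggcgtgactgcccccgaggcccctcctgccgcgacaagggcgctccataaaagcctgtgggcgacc

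Positions are counted backwards from the start site. In Cck the cAMP core lies at -47, read as CGTCA, and the hypoxia core at -66 and -65, where the same 6 letters CACGTG hold it on both strands. In Tac1 the cAMP core lies at -197 and -43 and the hypoxia core at -61 and -60, again as CACGTG. Adcyap1 has the cAMP core at -91 and the hypoxia core at -63, counted from the start site of the window shown. A further RefSeq start site of Adcyap1 puts the same letters at -242 and -214 and has another hypoxia core at -91. Vip has only the cAMP core, at -79. Npy has none of these letters in the window. Of the 8 members with a window, the full element was found only in Sst, at -48. Of all 32851 windows of the same length (300 bases, with the 50 after the start site), 20.8% held TGACG, 19.6% held ACGTG and 1.79% held TGACGTCA. Of the members not shown, Nts has the cAMP core at -166 and Gal at 20, after the start site. In all, 7 of the 8 members with a window held TGACG and 3 held ACGTG. These matches describe letters only, and they occur both in members that were lower (Cck, Adcyap1, Vip) and in members that were higher (Tac1, Nts) in OIR retinas.

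The deposited values are normalized reads, that is reads per gene divided by 1 size factor per mouse. Depth lay between 17029536 and 33593428 recovered reads per mouse, with a median of 30024568 over 27 mice, and OIR p17 mouse S1 was the shallowest. The retina was present as labelled in every group, since Glul (Müller glia) averaged between 7181 and 14394 normalized reads and Gad1 (amacrine cells) between 7105 and 10893. Summed lens markers (5 genes) ranged from 33.7 to 15796 normalized reads within nOIR p14, from 45.1 to 5462 in OIR p14, from 111 to 9214 in nOIR p17 and from 244 to 27393 in OIR p17. Differences between groups are on the scale of log2(normalized reads + 1), with the standard error (SE) from a limma fit over all 27137 genes and 26 mice. A gene was called with a Benjamini-Hochberg adjusted p under 0.05 over all those genes. The median difference over all genes was 0.02 at p14 and -0.02 at p17. P-values measure the spread between mice.

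Cck encodes cholecystokinin, a peptide of amacrine cells in the retina and one of the commonest neuropeptides of the brain. In nOIR p14 retinas Cck ranged from 267 to 431 normalized reads, with a median of 334. In OIR p14 retinas it ranged from 59.1 to 112, with a median of 69.1. Every OIR p14 mouse lay below every control, and the mean fell from 335.6 ± 69.2 (SD, n = 6) to 73.4 ± 19.7 (SD, n = 6), which is 0.219 times the control mean. At p17 the controls ranged from 376 to 635 with a median of 493, and the OIR mice from 54.4 to 198 with a median of 149. All 8 OIR p17 mice were again below all controls, with means of 130.3 ± 53.2 (SD, n = 8) against 501.5 ± 84.8 (SD, n = 6). The OIR difference was -2.19 (SE 0.25) on the log2 scale at p14 and -2.05 (SE 0.23) at p17. Of all genes tested, 1.86% had OIR values wholly below the controls at p14 and 1.98% at p17. In RNA of whole retina, fewer cells of a type and less RNA per cell cannot be told apart.

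The age differences of Cck use the same values, so they are also given as a description, without a p-value or a call. In normal retinas the p17 value was 0.59 higher than at p14 on the log2 scale (SE 0.25), with 5 of 6 nOIR p17 mice above all nOIR p14 mice. In OIR retinas it was 0.73 higher (SE 0.23), with 5 of 8 OIR p17 mice above all OIR p14 mice. The 8 OIR p17 mice fell into values of 54.4 to 79.1 in mice S1, S2 and S5 and 143 to 198 in the other 5, and the spread in that group (coefficient of variation 40.8%) was the widest of the 4 groups for Cck.

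**Figure D1:**
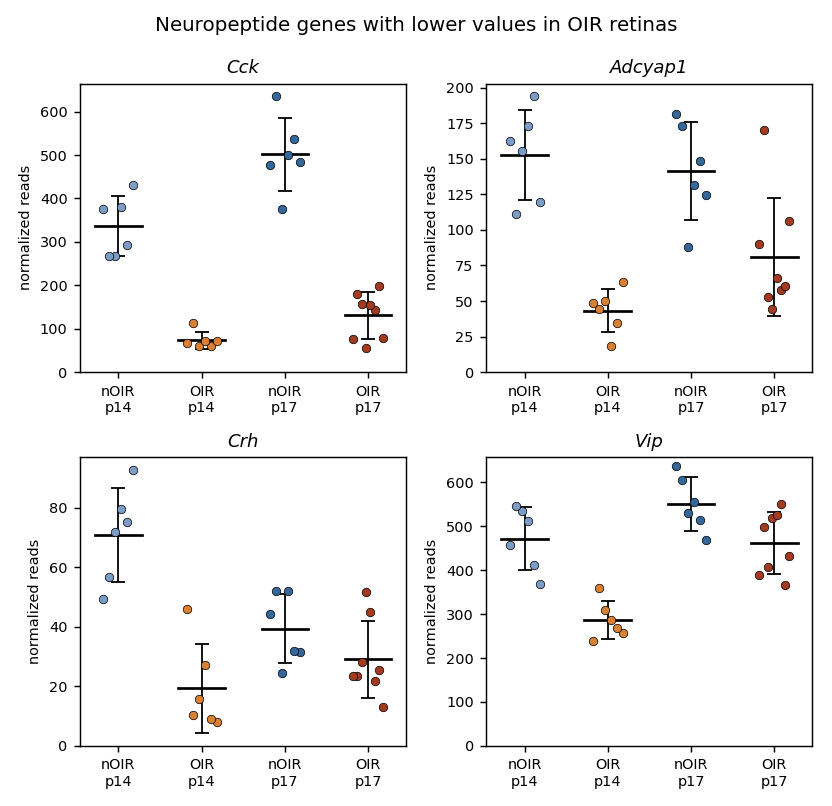
Normalized reads of Cck, Adcyap1, Crh and Vip in each mouse (points), with the group mean and SD (bars), for nOIR and OIR retinas at p14 and p17. All OIR p14 points lie below all nOIR p14 points for the 4 genes, and at p17 this holds for Cck only.

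Adcyap1, which encodes the secretin-family peptide PACAP, was lower at both ages. Control retinas at p14 ranged from 111 to 194 normalized reads (median 159) and OIR p14 retinas from 18.2 to 63.3 (median 46.4), without overlap. The mean was 0.283 times the control mean, and the difference of -1.87 (SE 0.29) was called (limma, Benjamini-Hochberg adjusted p = 6.47e-05). At p17 controls ranged from 88.3 to 182 (median 140) and OIR retinas from 44.5 to 171 (median 63.4). There 5 of 8 OIR mice lay below all controls, while mice S1, S4 and S8 (90.2, 171 and 106) lay within the control range. The difference of -0.89 (SE 0.27) was called (limma adjusted p = 0.0255). This p17 call was lost when any 1 of 6 mice was left out (nOIR p17 S2, S4 or S6, or OIR p17 S2, S3 or S6), with differences from -0.78 to -0.86 and adjusted p from 0.0502 to 0.0715. Within OIR, Adcyap1 was 0.86 higher at p17 than at p14 (SE 0.27), which was not called (limma adjusted p = 0.0555).

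Vip encodes vasoactive intestinal peptide, a close relative of PACAP made by a class of amacrine cells. At p14 controls ranged from 368 to 547 normalized reads (median 485) and OIR retinas from 240 to 360 (median 278), and the groups did not overlap. The difference of -0.71 (SE 0.13, limma adjusted p = 0.000442) corresponds to 0.608 times the control mean. At p17 the controls ranged from 468 to 637 (median 543) and OIR retinas from 367 to 551 (median 466). Here 4 of 8 OIR mice were below all controls, and the difference of -0.27 (SE 0.12) was not called (limma adjusted p = 0.166). Vip rose from p14 to p17 within OIR by 0.68 (SE 0.12, limma adjusted p = 0.000362), and all 8 OIR p17 mice lay above all OIR p14 mice, as in 1.41% of all genes. In normal retinas Vip differed by 0.23 between the ages (SE 0.13, limma adjusted p = 0.768).

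Crh encodes corticotropin-releasing hormone, which starts the stress axis in the hypothalamus and is also found in amacrine cells. Control p14 retinas had between 49.4 and 92.6 normalized reads (median 73.6), and OIR p14 retinas between 8.07 and 46.2 (median 12.9). No OIR mouse reached the lowest control, and the difference of -2.07 (SE 0.36, limma adjusted p = 0.00032) also passed the fold threshold of the study, a log2 difference below -2, which 0.14% of all genes passed together with the adjusted p. In edgeR (-1.87) and DESeq2, with mouse S4 included, with mouse number as a block, and without nOIR p14 S6 or OIR p14 S1, S3 or S4, the difference stayed called but did not reach that fold. With a mouse left out it ranged from -2.37 to -1.89. By p17 controls ranged from 24.3 to 52.1 (median 38.1) and OIR retinas from 12.9 to 51.9 (median 24.6). The groups overlapped, and the p17 difference of -0.48 (SE 0.34) was not called (limma adjusted p = 0.435). Between p14 and p17 the control mean went from 70.9 ± 15.7 (SD, n = 6) to 39.4 ± 11.7 (SD, n = 6), a difference of -0.86 (SE 0.36) that was not called (limma adjusted p = 0.55). The OIR difference of Crh was 1.59 smaller in size at p17 than at p14 (SE 0.49, limma adjusted p = 0.124), which passed the threshold in one case, without OIR p14 mouse S2, the highest of its group (1.88, adjusted p = 0.0244).

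At p14, 3 of the 9 members other than Cck were thus called lower, namely Adcyap1, Crh and Vip, against 2.91% of all genes. None of the 9 was called higher (3.18% of all genes), although Npy and Tac1 had unadjusted p of 0.00807 and 0.0369 in limma (16.98% of all genes had one under 0.05), and edgeR and DESeq2 also called only these 3 members. The same 3 members had OIR values wholly below the controls, as did 1.86% of all genes.

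Npy encodes neuropeptide Y, which amacrine cells make and which acts on Y receptors of neurons, glia and vessels. At p17 control retinas ranged from 855 to 1204 normalized reads (median 1073) and OIR retinas from 1145 to 2543 (median 1777). In 7 of 8 OIR mice Npy was above all controls, and the difference of 0.76 (SE 0.16) was called (limma adjusted p = 0.000788). At p14 controls ranged from 1052 to 2097 (median 1568) and OIR retinas from 1636 to 2679 (median 2339), with 4 of 6 OIR mice above all controls. That difference of 0.48 (SE 0.17) was not called (limma adjusted p = 0.0985), but it passed with mouse S4 included (0.56, adjusted p = 0.0375). It also passed without nOIR p14 mouse S3, the highest control (0.56, adjusted p = 0.0486), and with mouse number as a block (0.50, adjusted p = 0.0391). In normal retinas the difference from p14 to p17 was -0.58 (SE 0.17, limma adjusted p = 0.181).

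Tac1 encodes the precursor of substance P and neurokinin A. Its controls at p17 ranged from 893 to 1283 normalized reads (median 1135), and OIR retinas from 1213 to 3064 (median 2228). Of the OIR mice, 6 of 8 were above all controls while S1 and S2 lay within the control range, and the difference of 0.82 (SE 0.18) was called (limma adjusted p = 0.00115). At p14 controls ranged from 846 to 1355 (median 1111) and OIR retinas from 1230 to 2362 (median 1299). The p14 difference of 0.41 (SE 0.19) was not called (limma adjusted p = 0.25), and only 2 of 6 OIR mice exceeded all controls.

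Penk encodes proenkephalin, the source of the opioid enkephalins. Means were 393 ± 79.8 (SD, n = 6) in nOIR p14, 355 ± 80.0 (SD, n = 6) in OIR p14, 479 ± 84.2 (SD, n = 6) in nOIR p17 and 606 ± 156 (SD, n = 8) in OIR p17. OIR and control values overlapped at both ages, with differences of -0.15 (SE 0.17, limma adjusted p = 0.76) at p14 and 0.32 (SE 0.16, limma adjusted p = 0.228) at p17. Within OIR, however, Penk rose from p14 to p17 by 0.76 (SE 0.16, limma adjusted p = 0.0028), with 6 of 8 OIR p17 mice above all OIR p14 mice. Penk overlaps an antisense gene, A830012C17Rik (mean 1.23 normalized reads). The counting did not use strand, so the gene of a read within the overlap cannot be told.

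Sst, the precursor of somatostatin, and Gal, the precursor of galanin, varied more between mice than between groups. Sst averaged 66.3 ± 33.8 (SD, n = 6) normalized reads in nOIR p14, 101 ± 38.8 (SD, n = 6) in OIR p14, 61.1 ± 32.3 (SD, n = 6) in nOIR p17 and 78.0 ± 44.7 (SD, n = 8) in OIR p17. Its OIR differences were 0.65 at p14 (95% interval -0.10 to 1.40) and 0.30 at p17 (95% interval -0.40 to 1.00). Gal averaged 88.1 ± 25.7 (SD, n = 6), 92.5 ± 31.8 (SD, n = 6), 75.3 ± 21.2 (SD, n = 6) and 103 ± 40.9 (SD, n = 8) in the same order of groups. Its OIR differences were 0.05 at p14 (95% interval -0.54 to 0.65) and 0.38 at p17 (95% interval -0.17 to 0.93). Neither gene was called in any comparison. These intervals still allow a change of 0.48, the Npy difference at p14. Apart from that of Gal at p14, they also allow 0.76, the Npy difference at p17.

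Nts encodes neurotensin and was close to the limit of detection. Only 1 of 6 nOIR p14 mice had any read (4 reads in S5), against 5 of 6 OIR p14 mice, each with 2 to 5 reads. At p17, 2 of 6 controls had 3 reads each, while 7 of 8 OIR mice had between 2 and 58 reads (S1 to S8 with 7, 3, 58, 4, 2, 13, 0 and 18). In 5 of 8 OIR p17 mice the normalized value exceeded all controls, and the fitted difference of 2.17 (SE 0.66) was called (limma adjusted p = 0.0247). This value depends on the pseudocount, and the call was lost when only the p17 mice were fitted (adjusted p = 0.0692). It was also lost without any 1 of 6 mice, namely nOIR p17 S1, S2, S3 or S6 or OIR p17 S3 or S8, with adjusted p from 0.0506 to 0.061.

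**Figure D2:**
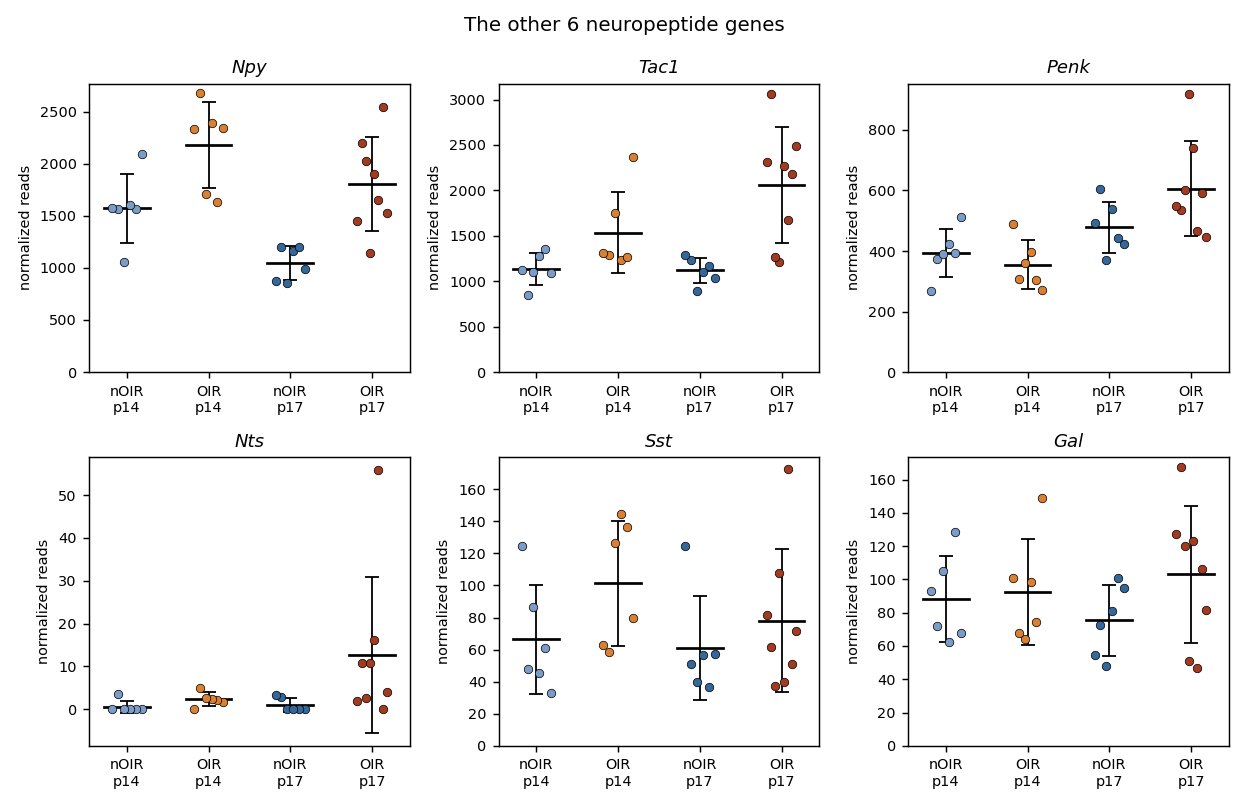
Normalized reads of Npy, Tac1, Penk, Nts, Sst and Gal in each mouse (points), with the group mean and SD (bars). For Npy, 7 of 8 OIR p17 mice and for Tac1 6 of 8 lie above all nOIR p17 mice, while Sst, Gal and Penk overlap between OIR and control at both ages.

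At p17 the called members thus differed in direction. Adcyap1 was the 1 of 9 called lower (5.12% of all genes were), and Npy, Tac1 and Nts were the 3 called higher (7.39% of all genes were). Among members other than Cck the median log2 difference was 0.05 at p14 and 0.32 at p17. The 2 sets of calls share only Adcyap1, and no member was called as changed between the ages in its OIR difference (0 of 9 in limma, edgeR and DESeq2; 3 of 9, Crh, Vip and Adcyap1, at an unadjusted p under 0.05). Of all genes, 1.58% were called for this change and 10.7% had an unadjusted p under 0.05. The comparisons at p14 and p17 use different mice.

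**Figure D3:**
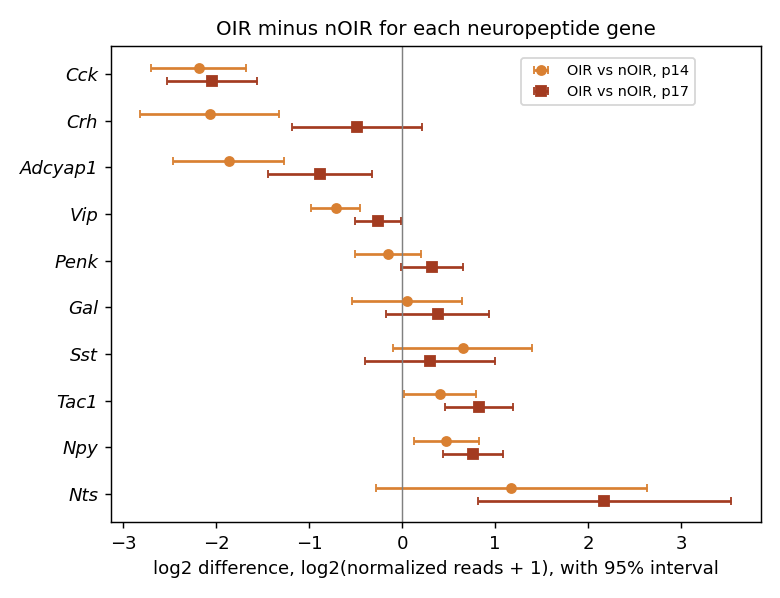
Difference between OIR and nOIR mice for the 10 members at p14 (circles) and p17 (squares), on the scale of log2(normalized reads + 1), with 95% intervals from the limma fit. Cck lies near -2 at both ages, Crh and Adcyap1 lie further left at p14 than at p17, and Npy and Tac1 lie to the right of 0.

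Over normal development from p14 to p17, 0 of the 9 members other than Cck were called (0.317% of all genes), also in edgeR and DESeq2, and 2 of 9 (Npy and Crh) had an unadjusted p under 0.05 in limma (7.37% of all genes). Within OIR over the same days, 2 of 9 were called, Vip and Penk, both higher (4.11% of all genes were called higher), while edgeR and DESeq2 each called Adcyap1 as well. The exact permutation test (two-sided, on log2 values) was run for 38 comparisons, including the age differences of Cck, whose p-values are not used. For 6 against 6 mice its smallest possible p was 0.0022, which Adcyap1, Crh and Vip had at p14.

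The same mouse was often, but not in every group, at the end of the range for several members. Leaving Nts aside, OIR p17 mouse S1, the shallowest library with 17029536 reads, was the lowest of its group for 6 of 9 members (Cck, Npy, Sst, Tac1, Penk and Gal), and S8 was the highest for 5 (Cck, Tac1, Penk, Crh and Gal). Among nOIR p17 mice, S1 was the lowest for 6 of 9 (Cck, Npy, Sst, Tac1, Penk and Crh). In nOIR p14, S1 was the lowest for 5 of 9 and S7 the highest for 4. In OIR p14 no mouse was at one end for more than 3, and S2 was the highest for Npy, Crh and Adcyap1 and the lowest for Cck, Tac1 and Penk. The coefficient of variation within nOIR p14 ran from 15.2% for Vip to 50.9% for Sst, and within OIR p17 from 15.3% for Vip to 57.3% for Sst. Whether depth or dissection had a part in this was not tested.

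The receptors of these peptides were given as a list of 29 genes, of which 28 were tested. At p14 the list had 1 gene called, Tacr3, which was lower, and at p17 it had 4 lower (Tacr3, Vipr2, Sstr1 and Cckar) and 1 higher (Sstr3), against 6.09% and 12.5% of all genes called in either direction. The median difference over the list was -0.20 at p14 and -0.21 at p17. Cckar, the CCK1 receptor, was low, with 13.5 ± 8.92 (SD, n = 6) normalized reads in nOIR p17 and 2.79 ± 3.71 (SD, n = 8) in OIR p17 retinas. Its p17 difference of -2.25 (SE 0.62) was called (limma adjusted p = 0.0121), and 7 of 8 OIR mice lay below all controls. Cckbr, the CCK2 receptor, had 678 ± 91.8 (SD, n = 6) normalized reads in nOIR p17 and 768 ± 85.9 (SD, n = 8) in OIR p17, and neither its p14 difference of 0.08 (95% interval -0.17 to 0.33) nor its p17 difference of 0.18 (95% interval -0.05 to 0.42) was called. Tacr3, a tachykinin receptor found on bipolar cells, fell by 0.83 at p14 (SE 0.12, limma adjusted p = 2.51e-05) and by 1.00 at p17 (SE 0.11, limma adjusted p = 8.97e-08), without overlap at either age. Vipr2, a receptor of VIP and PACAP, fell by 0.50 at p17 (SE 0.10, limma adjusted p = 0.000967). Of the somatostatin receptors, Sstr1 was lower at p17 (-1.94, SE 0.47, limma adjusted p = 0.00439) and Sstr3 higher (1.70, SE 0.49, limma adjusted p = 0.0187). Their p14 differences of -1.35 and 1.10 were not called (limma adjusted p = 0.128 and 0.282). Both genes were low. Sstr1 averaged 39.0 ± 9.10 (SD, n = 6) normalized reads in nOIR p17 and 13.2 ± 9.54 (SD, n = 8) in OIR p17, where 7 of 8 mice had any read. Sstr3 averaged 10.4 ± 6.67 (SD, n = 6) and 31.3 ± 9.90 (SD, n = 8) in the same groups.

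A list of 19 genes for cutting peptides and for dense-core granules had 3 lower at p14 (Syt10, Vgf and Pam) and 6 lower at p17 (Syt4, Syt10, Cadps2, Cadps, Pam and Scg3), against 2.91% and 5.12% of all genes. The medians were -0.15 and -0.23. Syt10, a synaptotagmin of peptide granules, averaged 207 ± 50.4 (SD, n = 6) in nOIR p14 and 84.7 ± 31.5 (SD, n = 6) in OIR p14 retinas (limma adjusted p = 0.000823) and by 1.01 at p17 (SE 0.24, limma adjusted p = 0.00284), and its groups did not overlap at either age. Syt4, another synaptotagmin, fell by 0.50 at p17 (SE 0.10, limma adjusted p = 0.000502), and Cadps2, which primes dense-core granules, by 0.76 (SE 0.20, limma adjusted p = 0.0101). Pam, which amidates the ends of peptides such as CCK, PACAP and NPY, fell by 0.56 at p14 (SE 0.15, limma adjusted p = 0.0219) and by 0.45 at p17 (SE 0.14, limma adjusted p = 0.0329). Vgf, the precursor of several secreted peptides, fell by 0.91 at p14, Cadps, a priming factor like Cadps2, by 1.01 at p17, and Scg3, a granin of the granule core, by 0.27 at p17 (limma adjusted p of 0.0131, 0.0129 and 0.0308).

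Of 42 other neuropeptide genes, 39 were in the table and 28 were tested. At p14, 3 were lower (Apela, Calca and Calcb), and at p17, 1 was lower (Cartpt) and 3 were higher (Ghrh, Pomc and Pnoc), with medians of 0.01 and -0.08. Of all genes, 6.09% were called at p14 and 12.5% at p17, so the share of this list at p17 is near the background. The count at p14 fell to 1 when any 1 of 5 mice was left out (nOIR p14 S7 or OIR p14 S1, S3, S4 or S6). Calcb was low, with a mean of 3.30 normalized reads over the 26 mice and a p14 difference of -1.92 (SE 0.55, limma adjusted p = 0.0324). Apela, a ligand of the apelin receptor, averaged 79.2 ± 11.9 (SD, n = 6) normalized reads in nOIR p14 and 39.6 ± 16.9 (SD, n = 6) in OIR p14 (difference -1.09, SE 0.25, limma adjusted p = 0.00616). Calca, the calcitonin and CGRP gene, averaged 82.2 ± 21.7 (SD, n = 6) and 42.9 ± 15.4 (SD, n = 6) in the same groups (difference -0.95, SE 0.29, limma adjusted p = 0.0464). At p17 Ghrh, which encodes growth hormone-releasing hormone, had 15.7 ± 5.02 (SD, n = 6) normalized reads in controls and 72.4 ± 34.2 (SD, n = 8) in OIR retinas, without overlap (difference 2.05, SE 0.29, limma adjusted p = 4.67e-06). Pomc, the precursor of melanocortins and beta-endorphin, had 218 ± 36.3 (SD, n = 6) and 475 ± 134 (SD, n = 8), also without overlap (difference 1.08, SE 0.17, limma adjusted p = 1.94e-05). Pnoc, the nociceptin precursor, had 23.0 ± 11.1 (SD, n = 6) and 60.4 ± 21.0 (SD, n = 8) (difference 1.42, SE 0.28, limma adjusted p = 0.00055). Cartpt, the precursor of the CART peptides, was 0.52 lower at p17 (log2 difference -0.52, SE 0.16, limma adjusted p = 0.0274).

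**Figure D4:**
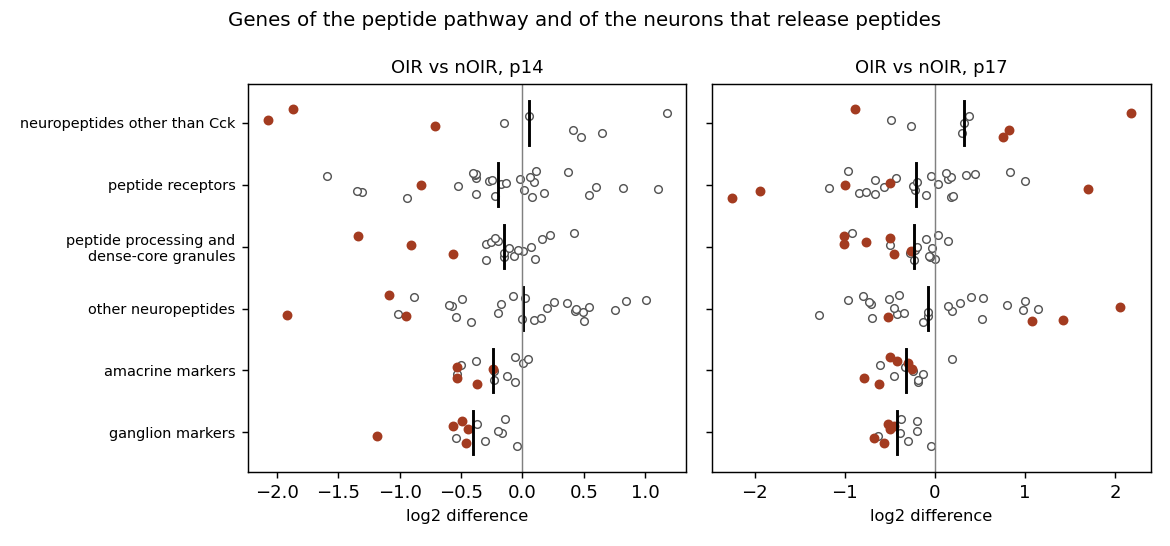
Log2 difference between OIR and nOIR mice for each gene (points) of the members other than Cck, 3 lists of the peptide pathway and the amacrine and ganglion cell markers, at p14 and p17. Filled points had a limma adjusted p under 0.05 and black bars are the medians of each list, which lie below 0 at both ages for the receptor, processing, amacrine and ganglion lists.

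Some markers of the neurons that make these peptides were called lower in OIR retinas. Of 14 amacrine markers, 4 were called lower at p14 and 6 at p17 (2.91% and 5.12% of all genes were), with median differences of -0.24 and -0.32. Their summed level per mouse ran from 53306 to 62725 normalized reads in nOIR p14 and from 43210 to 48602 in OIR p14, and from 58983 to 61429 in nOIR p17 and from 43411 to 53439 in OIR p17, without overlap at either age. Slc6a9, a glycine transporter of amacrine cells, fell by 0.54 at p14 and by 0.79 at p17, and Gad1, which makes GABA, by 0.37 and 0.62. Of 12 ganglion cell markers, 5 were called lower at each age (medians -0.41 and -0.42), and their sums ran from 35186 to 44998 in nOIR p14, 28838 to 33177 in OIR p14, 41841 to 45960 in nOIR p17 and 27043 to 42309 in OIR p17. No marker of either list was at 0 in every mouse of a group. Some markers of other cells were called as well, and photoreceptor markers, which were also counted, are not reported here. Of 5 Müller glia markers 4 were called lower at each age (medians -0.75 and -0.63), and of 8 bipolar cell markers 2 were called lower at p14 and 7 at p17 (medians -0.13 and -0.46). At p17, 2 of 3 astrocyte, 3 of 4 endothelial and 2 of 4 microglia markers were called higher (7.39% of all genes were). At p14, 1 of each of these lists was called higher (3.18% of all genes were), beside 1 endothelial marker called lower. Of 4 horizontal cell markers 1 was called lower at each age, and the 4 markers of iris, ciliary body or pigment epithelium had median differences of -0.29 and -0.04 and no call in limma (0 at an unadjusted p under 0.05). The part of cell numbers in the peptide differences was not tested.

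The genes most like Cck over the 26 mice were sought among 18995 genes averaging 10 or more normalized reads, by the root mean square of the difference between log2 values after centring each gene on its own mean. This measure was 0.48 for Ramp1, 0.50 for Spc25, 0.54 for Gabra4, 0.59 for Ighg2c and 0.62 for Ly6c1, against a median of 1.22 over all genes ranked. Ramp1 is a subunit of the CGRP receptor, and Gabra4 is a subunit of the GABA-A receptor. Ramp1 differed between OIR and nOIR by -2.18 (SE 0.26) at p14 and -1.33 (SE 0.25) at p17, and Gabra4 by -1.65 (SE 0.14) and -1.68 (SE 0.13). Spc25 differed by -1.46 (SE 0.16) and -1.74 (SE 0.15), and Ighg2c by -1.73 (SE 0.35) and -1.23 (SE 0.32). Ly6c1 differed by -1.24 (SE 0.27) and -1.35 (SE 0.25). These values are a description, since likeness to Cck chose the genes. Among the members, Adcyap1 was nearest to Cck at 0.75, followed by Crh at 0.87 and Vip at 0.91, and Nts was the farthest at 2.25.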

How the data were processed

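Whole-retina RNA of OIR and nOIR mice was sequenced from about 1 ng per mouse after PCR amplification. According to the submitters' notes and the study's methods, the authors checked reads with FastQC 0.73, mapped them with STAR 2.7.8a to Gencode M28, counted them per gene with featureCounts 2.0.1 at default settings (no strand), removed genes at 0 over all their samples, and divided the counts by 1 size factor per mouse (DESeq2 1.34, R 4.0.3), which gave the deposited signal of normalized reads. The deposited table also holds group means, and the log2 fold changes and adjusted p-values that the authors computed with DESeq2, none of which were used. Of the listed genes, 164 are at 0 in each of the 27 mice. Multiplying by 1 factor per mouse gave whole reads for 100% of values (relative tolerance 1e-06). PCR copies were not removed, so reads are not independent molecules. Mice of a group differed in their reads by at least 9.39 (chi-square per degree of freedom), so none was a copy of another.

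The members and gene lists were chosen with earlier results of these data known. Limma 3.58.1 (trend, R 4.3.3) was fitted to log2(normalized reads + 1) of 26 mice in 4 groups, for genes with a mean of at least 1, with Benjamini-Hochberg adjustment over 27137 genes. No count test was the main result, since the unit is not raw counts. EdgeR 4.0.16 and DESeq2 1.42.0 were run on the recovered reads as alternatives. Exact permutation tests used scipy 1.17.1. Other alternatives were a pseudocount of 0.1, no filter or a mean of at least 10, S4 included, only the compared groups, mouse number as a block, rescaling to the same total, quantile normalization, log2 Xist as a covariate, an adjusted p under 0.01 and leaving out each mouse. Those for the pathway and marker lists were added after the data were seen. Limma was tested on simulated data. Named genes beside the members are Cckar, Cckbr, up to 3 genes per list and direction with the smallest adjusted p among called genes with a mean of at least 10, the tissue markers and the 5 genes most like Cck. Vgf, Pam, Cadps, Scg3 and Calcb were named outside this rule after their values were seen. Other marker lists (bipolar, horizontal, Müller glia, astrocyte, endothelial, microglia, and iris or pigment epithelium) were counted and summed in the same way. This was also done for photoreceptor markers, whose values are not reported.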

Additional observations from a re-analysis of the deposited data

Results flagged for a closer look

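In 4 of 40 sets of 1 member in 1 group, the highest mouse stood apart from the rest of its group by Dixon's test at the 95% level, which chance gives in about 1 of 20 groups. For Cck in OIR p14, mouse S5 had 112 normalized reads and the next mouse 71.7. It still lay below every control. For Sst in nOIR p17, mouse S2 had 124.7 and the next mouse 57.5. For Nts, nOIR p14 mouse S5 had 3.50 (4 reads) where the other 5 mice had 0. Any read in S5 would have been flagged there, so this set cannot be compared with the chance rate. OIR p17 mouse S3 had 55.7 of Nts against 16.1 in the next.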

How the results depend on the processing

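The Cck difference at p14 ranged from -2.25 to -2.09 over the alternatives and from -2.32 to -2.11 with a mouse left out, and at p17 from -2.24 to -1.93 and from -2.15 to -1.89. An adjusted p under 0.01 left 2 members at p17 (4 at 0.05), 3 receptors at p17 (5), 1 and 2 processing genes at p14 and p17 (3 and 6) and 1 other neuropeptide at p14 (3). For age within OIR, a mean of at least 10, mouse S4 included, edgeR and DESeq2 each called Adcyap1 beside Vip and Penk. Cck, whose own values chose the set, is not counted. Fitting only the compared groups, and DESeq2, called 2 receptors at p14 (1). Mice with the same number in different groups had a median correlation of 0.003 over 34 pairs (highest 0.16, 4 above 0.1). Pairs with different numbers had a median of -0.001 over 218 pairs (highest 0.15, 7 above 0.1). The medians thus showed no pairing by mouse number. With the number as a block, 1 other neuropeptide was called at p14 (3) and Npy was called at p14 (0.50, adjusted p = 0.0391). Gal at p14 reversed to -0.035 under quantile normalization, and ranged from -0.095 to 0.17 with a mouse left out (below 0 without nOIR p14 S1, nOIR p14 S2 or OIR p14 S1), never called. With each mouse left out, members called ranged from 3 to 4 at p14 and 2 to 4 at p17 (2 without nOIR p17 S2 or S6 or OIR p17 S3). They ranged from 0 to 0 for normal age and 0 to 1 for the change of the OIR difference. For age within OIR, Adcyap1 was called beside Vip and Penk without OIR p14 S2, OIR p17 S2 or OIR p17 S3. Called receptors ranged from 1 to 2 at p14 (2 without OIR p17 S5) and 4 to 7 at p17, processing genes from 2 to 4 and 4 to 7, other neuropeptides from 1 to 5 (1 without nOIR p14 S7 or OIR p14 S1, S3, S4 or S6, and 5 without OIR p17 S1) and 3 to 6, and amacrine and ganglion markers together from 8 to 11 and 8 to 14. The causes were not tested. Depth limits Nts, Calcb, Cckar, Sstr1 and Sstr3, which had few reads.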

Other observations

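The nOIR p14 mouse that was left out, S4, had 14923 normalized reads over the 5 lens markers, while another nOIR p14 mouse that was kept had 15796. S4 was below all other nOIR p14 mice for 5 of 10 members and above all for 0. It had 217 normalized reads of Cck (267 to 431 in the 6 others), 1002 of Npy (1052 to 2097), 823 of Tac1 (846 to 1355), 332 of Vip (368 to 547) and 45.6 of Crh (49.4 to 92.6). Its Adcyap1, with 154 normalized reads, lay within the range of the others (111 to 194). Its summed amacrine markers, 60839 normalized reads, also lay within their range (53306 to 62725).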
